A study of Homo sapiens with 6 samples.

Results

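Small nucleolar RNA (snoRNA) host genes are transcribed units whose introns carry snoRNAs. The genes described here were SNHG1, SNHG5, SNHG6, SNHG8, SNHG9, SNHG12, SNHG15, SNHG16, SNHG25 and GAS5. They were taken by symbol, and all 10 matched a row, out of 27264 gene rows in the count table. The list was chosen by name with the counts of these libraries already known, and no threshold was recorded. The differences of clone WT37 from the other clones, and of cells with DOX from cells without it, are taken as the values the list was selected on, and are given for these genes as descriptions. Where the number of them past edgeR's threshold in these contrasts is printed, it stands beside the share of all genes and is not a test of the genes.

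The libraries came from DLD-1, an established epithelial colorectal cancer cell line of the colon, in a study of epithelial-mesenchymal transition driven by ZEB2, a transcription factor that represses epithelial genes. All 6 cultures carried the genotype label ZEB2 WT, and the longer sample names also hold the code TR21, which the labels do not explain. Clones WT37, WT5 and WT2 were each sequenced once with DOX (commonly doxycycline) and once without it, and the study treats the 3 clones as its biological replicates. Dose and duration were not stated, and no library with DOX but without the ZEB2 label was analysed here, so an action of DOX itself and one of ZEB2 cannot be told apart. Each clone stands for 1 isolate, so a difference between clones cannot be told apart from one in culture, passage or extraction. In bulk RNA, fewer cells of a type and less RNA per cell cannot be told apart either.

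A snoRNA host is transcribed by RNA polymerase II and spliced. The excised introns are trimmed to snoRNAs, which guide chemical modification of ribosomal and spliceosomal RNA: box C/D snoRNAs guide 2'-O-methylation and box H/ACA snoRNAs guide pseudouridylation. The spliced exons of many non-coding hosts have short reading frames, enter ribosomes and are removed by nonsense-mediated decay (NMD). Several begin with a C followed by a pyrimidine tract, the 5' terminal oligopyrimidine (TOP) start that ribosomal protein genes also use. GAS5 was named for its abundance in growth-arrested cells and is known as a decoy that binds the glucocorticoid receptor.

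By the RefSeq annotation, 11 snoRNA genes lay inside GAS5, 9 inside SNHG1, 4 inside SNHG12, 3 inside SNHG16 and 2 inside SNHG5. SNHG6, SNHG8, SNHG9, SNHG15 and SNHG25 held 1 each. GAS5, SNHG1, SNHG5, SNHG6, SNHG16 and SNHG25 carried box C/D genes (names starting with SNORD), except for SNORA103 in GAS5 and an unnamed locus in SNHG1. SNHG8, SNHG9 and SNHG15 carried a box H/ACA gene (SNORA24, SNORA78 and SNORA9), and SNHG12 carried both kinds.

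Start regions of the members found in the RefSeq promoter table (GRCh38.p14, 6 of 10) are shown because a TOP start and a nearby TATA element are known features of some hosts. Each line runs 5' to 3' on the gene's strand, from 40 bases before the annotated start through the first 20 transcribed bases. Capitals mark TATAA where it lay within 40 to 11 bases before the start, and an unbroken run of C and T from base 1 where base 1 was C.
SNHG1, chr11:62855866-62855925, minus strand: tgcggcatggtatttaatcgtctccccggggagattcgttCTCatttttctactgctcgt
GAS5, chr1:173869026-173869085, minus strand: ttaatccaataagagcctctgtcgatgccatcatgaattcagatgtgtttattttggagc
SNHG5, chr6:85678714-85678773, minus strand: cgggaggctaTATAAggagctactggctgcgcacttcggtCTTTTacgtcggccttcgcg
SNHG16, chr17:76557724-76557783, plus strand: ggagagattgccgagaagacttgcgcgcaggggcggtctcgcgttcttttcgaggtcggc
SNHG12, chr1:28581854-28581913, minus strand: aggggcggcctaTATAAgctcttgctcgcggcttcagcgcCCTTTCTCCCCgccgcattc
SNHG8, chr4:118278722-118278781, plus strand: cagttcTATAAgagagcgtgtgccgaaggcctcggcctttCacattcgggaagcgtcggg
A run of at least 5 pyrimidines beginning with C at base 1 was present in SNHG5 and SNHG12, 2 of the 6, and in 4.07% of all 35116 promoters in the table. TATAA in the stated window, searched on the gene's strand only, was present in SNHG5, SNHG8 and SNHG12, 3 of the 6, and in 4.06% of all promoters. These are matches of letters at a single annotated start per gene, and all 6 RefSeq starts differ from the GENCODE 29 gene ends given below, so a run counted from base 1 holds for the RefSeq start only. SNHG6, SNHG9, SNHG15 and SNHG25 are named only.

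Between 5440093 and 7164426 reads per library fell in genes. Counting error at the members' levels is given as 95% exact Poisson intervals, which cover counting error only, since the reads were not collapsed to molecules. All 7 epithelial markers had reads in every library, with a summed level of 3670 to 5870 CPM (counts scaled to each library's total of reads in genes) in WT37, 4770 to 5620 CPM in WT5 and 4730 to 7050 CPM in WT2. The 6 mesenchymal markers summed to 15.9 to 19.4 CPM, 12.7 to 13.0 CPM and 9.46 to 11.2 CPM in the same clones, with SNAI2 at 0 in 2 libraries. The 4 markers of blood, endothelial and fibroblast cells summed to between 4.23 and 10.5 CPM, with PECAM1 at 0 in all 6 libraries. Reads mapped to several places made up 11.8% to 12.01% of the WT37 libraries, against 14.6% to 16.0% of the WT5 and WT2 libraries. Among the epithelial markers, CDX2 was higher in WT37 than in WT2 and WT5 (log2 fold change 0.34, edgeR adjusted p = 0.0453), and EPCAM (-0.67, adjusted p = 0.0114) and KRT18 (-0.49, adjusted p = 0.0268) were lower; 0 of the 7 passed without the WT37 library with DOX. The part of the mapping shares and of these markers in the clone differences below was not tested.

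Most of the 10 hosts stood higher in clone WT37 than in clones WT5 and WT2. Summed over the 10 members, the WT37 libraries with and without DOX held 1210 and 1398 CPM, against 585 and 708 CPM in WT5 and 670 and 705 CPM in WT2. On the log2 scale, the fold change of WT37 over the mean of WT2 and WT5 ranged from 0.03 to 1.86 with a median of 1.01, while the median over all 11732 genes tested was 0.01. By edgeR's quasi-likelihood test at an adjusted p of 0.05, 7 of the 10 passed as higher and 0 as lower, beside 5.03% and 4.13% of all genes tested (9.15% in either direction). The genes were selected on this contrast, so nothing is read from the count. Both WT37 libraries lay above all 4 others for 8 members, beside 21.6% of all genes tested, and below them for 0 members, beside 8.32%.

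**Figure D1:**
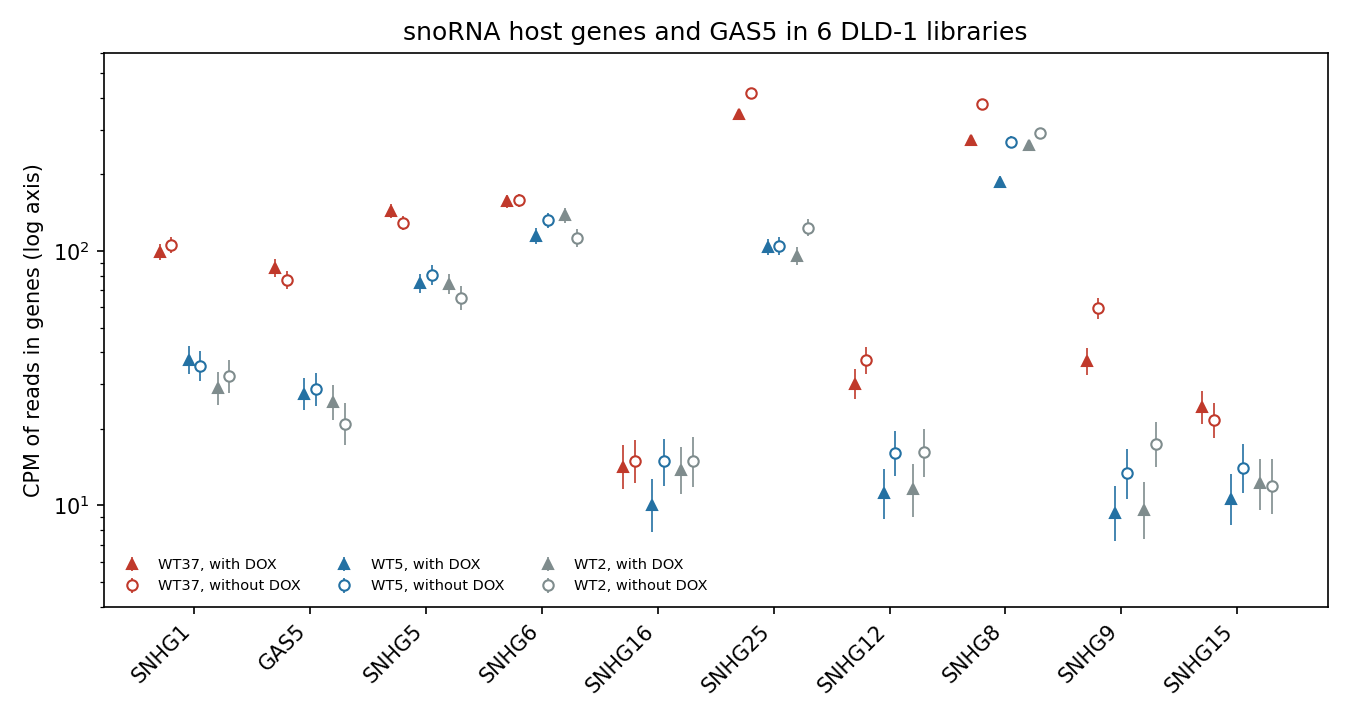
Level of each member (CPM of reads in genes, log axis) in the 6 libraries, with 95% Poisson intervals; filled triangles are libraries with DOX and open circles libraries without it. For 8 of the 10 genes both WT37 libraries (red) lie above the WT5 (blue) and WT2 (grey) libraries, and SNHG8 and SNHG16 overlap.

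Among the box C/D hosts, SNHG1 (ENSG00000255717, chr11:62851988-62855914, minus strand), a host whose spliced RNA is often raised in tumours, had 99.0 and 106 CPM in WT37 with and without DOX, against 37.3 and 35.4 CPM in WT5 and 28.9 and 32.2 CPM in WT2. The WT37 mean was 102 ± 4.71 CPM (SD, n = 2) and that of WT2 and WT5 33.4 ± 3.71 CPM (SD, n = 4), a log2 fold change of 1.52 (SE 0.113). Here and for the genes below, n counts libraries and not clones, and the SE of a clone contrast does not measure spread between clones. Both WT37 libraries stood far above the rest, and the other 4 stayed close together.

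GAS5 (ENSG00000234741, chr1:173863900-173868882, minus strand), the host with the most snoRNA genes here, had 85.8 and 76.9 CPM in WT37 with and without DOX, against 27.4 and 28.6 CPM in WT5 and 25.5 and 21.0 CPM in WT2. Its means were 81.4 ± 6.29 CPM in WT37 (SD, n = 2) and 25.6 ± 3.36 CPM in WT2 and WT5 (SD, n = 4), with a log2 fold change of 1.57 (SE 0.119). The groups did not overlap. ZBTB37 shares 801 bases with GAS5 on the opposite strand, and the labels do not say if the reads were counted by strand. ZBTB37 was low, at 43 to 95 reads per library, and its log2 fold change was 0.38 (edgeR adjusted p = 0.362).

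SNHG5 (ENSG00000203875, chr6:85660950-85678748, minus strand), whose start carries both capitalised features above, had 143 and 129 CPM in WT37 with and without DOX, against 74.5 and 80.5 CPM in WT5 and 74.4 and 65.4 CPM in WT2. Its log2 fold change was 0.79 (SE 0.104), smaller than that of SNHG1 or GAS5, and the groups again did not overlap. SNHG25 (ENSG00000266402, chr17:64145970-64146476, plus strand), the shortest member, had 346 and 418 CPM in WT37, against 103 and 105 CPM in WT5 and 95.6 and 123 CPM in WT2. It was the most abundant member in WT37, where SNHG8 came next, while SNHG8 led in WT5 and WT2. Means of SNHG25 were 382 ± 51.1 CPM in WT37 (SD, n = 2) and 107 ± 11.8 CPM in WT2 and WT5 (SD, n = 4), with a log2 fold change of 1.74 (SE 0.103).

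The snoRNA of SNHG25 had a row of its own. SNORD104 (ENSG00000199753, chr17:64146083-64146152, plus strand), a box C/D snoRNA in the SNHG25 intron, had 118 and 102 reads in WT37 with and without DOX, against 18 and 21 reads in WT5 and 21 in each WT2 library. That made 15.4 ± 1.65 CPM in WT37 (SD, n = 2) and 3.31 ± 0.553 CPM in WT2 and WT5 (SD, n = 4). The log2 fold change was 2.13 (SE 0.227), given without a test because the row lies inside a gene selected on this contrast. Both WT37 libraries lay far above the other 4. A 3' mRNA kit is not built to capture mature snoRNAs, and whether these reads came from the snoRNA, its precursor or the host was not tested. Of 164 snoRNA and small Cajal body RNA rows, 119 had any read and 11 were tested. Of the other 10 tested, SCARNA22 passed as lower in WT37 at -0.76 (edgeR adjusted p = 0.0328, 0.367 without clone WT2). Among the other snoRNA genes inside members, SNORD99 of SNHG12 had 0 to 2 reads per library and SNORD1B of SNHG16 had 0 in all.

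SNHG6 and SNHG16, also box C/D hosts, had the smallest WT37 differences of the 10. SNHG6 (ENSG00000245910, chromosome 8) had 157 and 158 CPM in WT37 with and without DOX, against 115 and 132 CPM in WT5 and 138 and 112 CPM in WT2, a log2 fold change of 0.24 (SE 0.113). SNHG16 (ENSG00000163597, chr17:76557766-76565348, plus strand) was the least abundant member in WT37, with 14.2 and 14.9 CPM there, against 10.04 and 14.9 CPM in WT5 and 13.8 and 14.9 CPM in WT2. WT37 stood narrowly apart for SNHG6. For SNHG16 the groups overlapped, with the WT37 library with DOX below 2 of the other 4, and the log2 fold change was 0.03 (SE 0.181). MCMDC2, which overlaps SNHG6 by 365 bases on the opposite strand, had 1 to 9 reads per library.

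SNHG12 (ENSG00000197989, chr1:28578538-28583132, minus strand), the host of both kinds of snoRNA and the member with the longest pyrimidine run, had 30.1 and 37.1 CPM in WT37 with and without DOX, against 11.2 and 16.0 CPM in WT5 and 11.6 and 16.2 CPM in WT2. Its log2 fold change was 1.20 (SE 0.145). The groups did not overlap, and within each clone the library with DOX was the lower one.

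Of the box H/ACA hosts, SNHG9 (ENSG00000255198, chr16:1964959-1965509, plus strand) had 36.8 and 59.5 CPM in WT37 with and without DOX, against 9.33 and 13.4 CPM in WT5 and 9.62 and 17.5 CPM in WT2. It showed the largest WT37 difference of the 10, at 1.86 on the log2 scale (SE 0.142), and its groups did not overlap. SNHG15 (ENSG00000232956, chr7:44983023-44986961, minus strand), known for a short-lived transcript, had 24.3 and 21.6 CPM in WT37, against 10.6 and 14.0 CPM in WT5 and 12.2 and 11.95 CPM in WT2, a log2 fold change of 0.82 (SE 0.170). SNHG8 (ENSG00000269893, chr4:118278709-118279823, plus strand) had 274 and 378 CPM in WT37, against 187 and 269 CPM in WT5 and 261 and 290 CPM in WT2. Its log2 fold change was 0.28 (SE 0.103), and the WT37 library with DOX lay below the WT2 library without it.

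Genes next to or overlapping the members were examined for the same difference. Within 3000 bases, a distance chosen after the files were seen, or overlapping, 6 genes were tested in the same contrast, with log2 fold changes from -0.38 to 0.38. By edgeR 0 of them passed after adjustment, beside 9.15% of all genes tested, and the lowest adjusted p was 0.0701. An unadjusted p under 0.05 was found for 4 of them, beside 3079 of all 11732 genes tested. These 4, SLC3A2, RPS2, NDUFB10 (-0.27) and TRNAU1AP (-0.38), were all lower in WT37. SLC3A2, an amino acid transporter subunit that starts 188 bases from SNHG1 on the other strand, had a log2 fold change of -0.36 (SE 0.114, edgeR adjusted p = 0.0701). RPS2, a ribosomal protein gene 99 bases from SNHG9, stood at -0.31 (edgeR adjusted p = 0.0775), while SNHG9 itself stood at 1.86.

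Other non-coding hosts were tested in the same fit over all genes, from a list written with earlier results of these data known. The counts and p-values for this list are therefore not independent of the WT37 contrast. Of 20 listed, 14 passed the filter on low counts, 6 rose in WT37 and 0 fell, which is 42.9% of those tested, beside 5.03% of all genes passing as higher. Their median log2 fold change was 0.60, beside 0.01 over all genes tested. SNHG19 had 67.6 and 64.9 CPM in WT37 with and without DOX, against 22.8 and 27.3 CPM in WT5 and 27.8 and 27.9 CPM in WT2, a log2 fold change of 1.23 (SE 0.121, edgeR adjusted p = 0.000262). SNHG7 had 58.6 and 55.8 CPM in WT37, against 25.6 and 23.5 CPM in WT5 and 21.5 and 24.5 CPM in WT2, a log2 fold change of 1.17 (SE 0.127, edgeR adjusted p = 0.000500). For both genes each WT37 library exceeded every other library by a wide margin.

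The other 4 that rose were SNHG3 (log2 fold change 1.03), EPB41L4A-AS1 (1.02), SNHG32 (0.84) and ZFAS1 (0.70), with edgeR adjusted p-values of 0.00259, 0.00110, 0.000698 and 0.00231. ZFAS1, a host of box C/D snoRNAs antisense to ZNFX1, had 209 and 183 CPM in WT37 with and without DOX, against 106 and 113 CPM in WT5 and 113 and 118 CPM in WT2. SNHG3 lost its call without the WT37 library that had no DOX (adjusted p = 0.0611), and ZFAS1 without the WT37 library that had DOX (adjusted p = 0.0987). SNHG19, SNHG7, SNHG32 and EPB41L4A-AS1 kept theirs in every alternative. DANCR, at a mean of 93.2 CPM, had a log2 fold change of -0.02 (SE 0.112, edgeR adjusted p = 0.939). SNHG29, with the lowest value of the 14, had -0.23 (SE 0.210, edgeR adjusted p = 0.525).

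**Figure D2:**
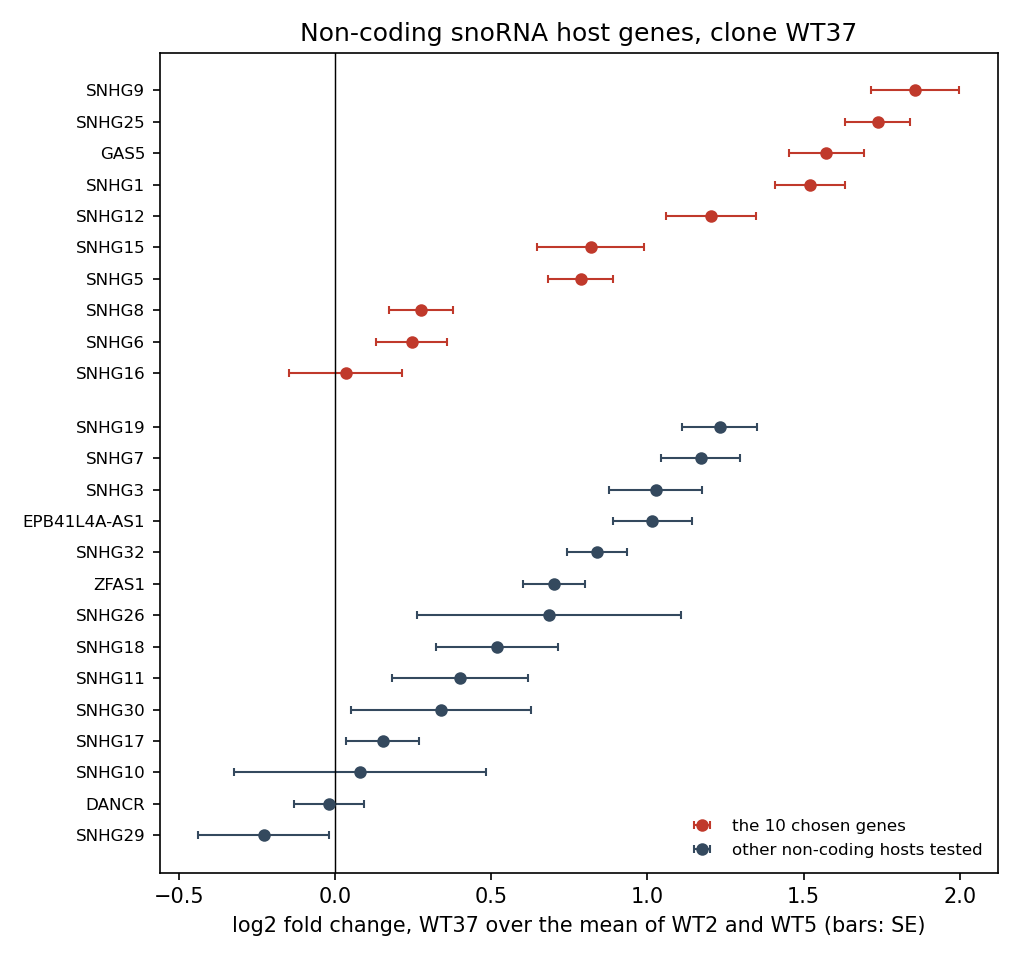
Log2 fold change of WT37 over the mean of WT2 and WT5, with its SE, for the 10 chosen genes (red) and the 14 other non-coding hosts tested (dark blue). Values in the second set run from -0.23 for SNHG29 to 1.23 for SNHG19.

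Starts of 3 of these hosts are shown for comparison with those of SNHG5 and SNHG12, with the same marks, build and strand rule.
SNHG19, chr16:2155339-2155398, minus strand: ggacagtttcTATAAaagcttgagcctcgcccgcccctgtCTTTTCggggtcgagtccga
SNHG7, chr9:136728165-136728224, minus strand: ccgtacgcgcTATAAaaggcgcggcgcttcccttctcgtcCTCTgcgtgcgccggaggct
ZFAS1, chr20:49278602-49278661, plus strand: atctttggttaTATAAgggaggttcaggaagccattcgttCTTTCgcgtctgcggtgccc
All 20 listed hosts matched the promoter table; 3 held TATAA in the window and 5 held a run of at least 5 pyrimidines. The 3 with TATAA were SNHG7, SNHG19 and ZFAS1, and these are the starts shown. Among the other listed hosts that rose in WT37, SNHG3 and EPB41L4A-AS1 held neither feature. SNHG32 held a run of 6 without TATAA. A link between start features and the WT37 difference was not tested. A match is a description and not a site or a cause.

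Hosts found by annotation instead of by hand, as genes of GENCODE 29 that contain an annotated snoRNA on the same strand, were divided into 3 further kinds. Of 17 hosts annotated as non-coding and tested, 6 rose and 0 fell in WT37, 35.3% beside 5.03% of all genes passing as higher. Their median log2 fold change was 0.41. They were EPB41L4A-AS1, SNHG3, SNHG7, SNHG19, TMEM161B-DT and ZFAS1. All but TMEM161B-DT were also called in the list written by hand, so this count is not independent of that one. TMEM161B-DT stood at 1.19 (edgeR adjusted p = 0.0214). It lost its call in 6 of 16 alternatives, DESeq2 (adjusted p = 0.159) among them. SNHG32 is annotated there as protein-coding and is counted with that kind.

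Of the ribosomal protein genes that host snoRNAs, 27 were tested, 0 rose and 6 fell in WT37, 22.2% beside 4.13% of all genes passing as lower. Their median log2 fold change was -0.21, with all 27 below 0, or 22 below 0 when scaled by reads in genes alone. RPL39, a protein of the large ribosomal subunit, stood at -0.79 (edgeR adjusted p = 0.0235). RPSA (-0.40), RPS13 (-0.39), RPS20 (-0.33) and RPL23 (-0.32) also fell. Scaling by reads in genes alone, which moved the median over all genes to 0.11, left 2 as lower and a median of -0.11 for these hosts. None of the 6 passed without the WT37 library with DOX. In WT5 against WT2, 25 of the 27 were also below 0 (median -0.16, or -0.11 when scaled by reads in genes alone), with 0 called by edgeR and 3 at an unadjusted p under 0.05. Another 184 protein-coding hosts had a median of 0.05, with 10 higher and 8 lower; the 9.78% called is near the 9.15% of all genes tested.

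**Figure D3:**
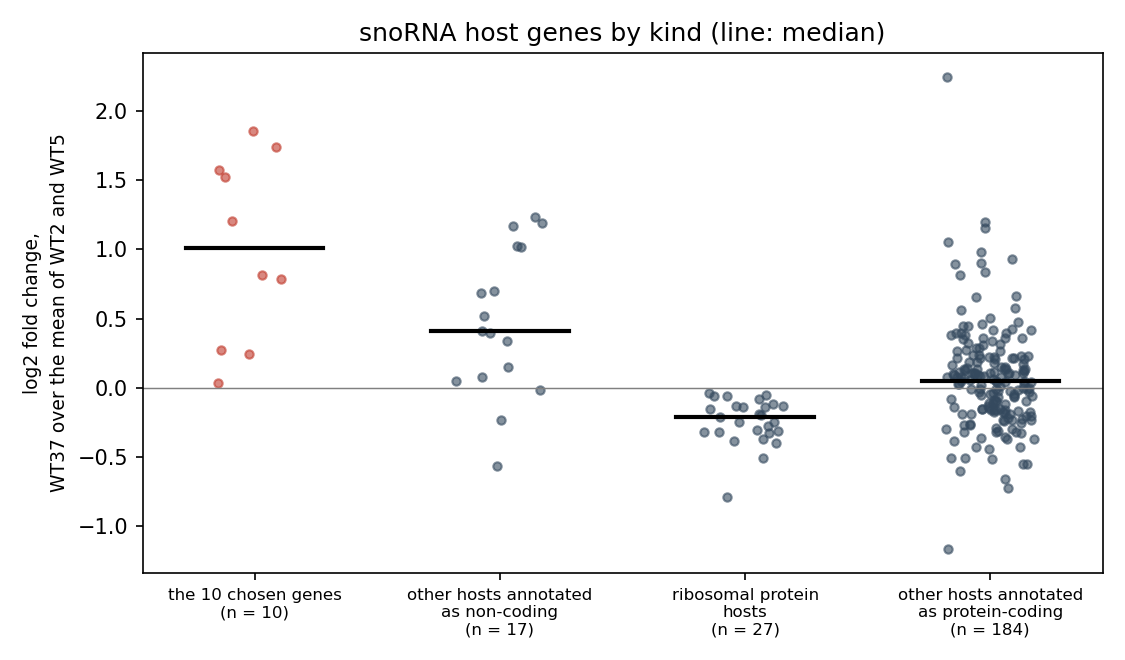
Log2 fold change of WT37 over the mean of WT2 and WT5 for 4 kinds of snoRNA host; each point is a gene and the line is the median. Medians are 1.01 for the 10 chosen genes, 0.41 for 17 other hosts annotated as non-coding, -0.21 for 27 ribosomal protein hosts and 0.05 for 184 other hosts annotated as protein-coding.

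In a hand-made list of 28 protein-coding hosts, 2 rose and 1 fell in WT37, 10.7% called in all, near the 9.15% of all genes tested. The median log2 fold change was -0.10, and reached 0 when scaled by reads in genes alone. EIF4A2, a translation initiation helicase, rose (log2 fold change 0.82, SE 0.102, edgeR adjusted p = 0.00117), as did SNX5, an endosomal sorting protein (0.50, adjusted p = 0.00777). EEF1B2, a translation elongation factor with a TOP start, fell by 0.55 on the log2 scale (edgeR adjusted p = 0.00615). Its list of 15 tested mRNAs with TOP starts had 0 higher and 2 lower (13.3%), EEF1B2 and EIF3K (-0.35, edgeR adjusted p = 0.0474), with a median of -0.09, or 0.02 when scaled by reads in genes alone.

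The proteins that bind snoRNAs were examined next. Of 18 snoRNP and assembly genes tested, 1 rose and 3 fell in WT37 (22.2% called, beside 9.15% of all genes), with a median log2 fold change of -0.17. Scaled by reads in genes alone, 2 rose and 1 fell, with a median of -0.07, so the balance of calls turned. DESeq2 called 0 as higher and 1 as lower. NOP10, a core protein of box H/ACA particles, rose by 0.35 (edgeR adjusted p = 0.0399), while GAR1, its partner in the same particle, stood at -0.40 (adjusted p = 0.0269). The assembly factors PIH1D1 and RUVBL2 stood at -0.57 and -0.37 (edgeR adjusted p = 0.00630 and 0.0442). In the ribosome biogenesis list, 0 of 14 rose and 1 fell (7.14%, beside 9.15% of all genes called). The list median was -0.07, or 0.03 when scaled by reads in genes alone. NOP14, a processing factor of the small subunit, fell by 0.53 (edgeR adjusted p = 0.0328).

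Transcripts and factors of NMD were examined because spliced hosts are known NMD substrates. Of 14 NMD-sensitive mRNAs tested, 5 rose and 0 fell in WT37 (35.7%, beside 5.03% of all genes passing as higher), with a median log2 fold change of 0.06. CCNL1 and CCNL2, cyclins with roles in splicing, rose by 0.90 and 0.82 (edgeR adjusted p = 0.00553 and 0.00766). ATF4, a stress-response transcription factor, had 390 and 353 CPM in WT37 with and without DOX, against 402 and 311 CPM in WT5 and 178 and 157 CPM in WT2. Its fold change of 0.51 (edgeR adjusted p = 0.0107) rested on WT2, without which it was -0.01 (adjusted p = 0.984). GADD45B and GABARAPL1 rose by 0.49 and 0.47 (edgeR adjusted p = 0.0373 and 0.0302). Of 13 NMD factors tested, 2 rose and 0 fell (15.4%, beside 5.03% of all genes passing as higher), with a median of 0.05. DESeq2 called 0 of the 13, beside 3.90% of all genes. With no DOX term edgeR also called 0, beside 2.32%. SMG1, the kinase of the pathway, stood at 0.70 (edgeR adjusted p = 0.0235), and UPF1, the helicase that SMG1 phosphorylates, at 0.43 (edgeR adjusted p = 0.0256).

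For the receptor that GAS5 is known to bind, 7 of 9 listed genes were tested. Of these, 1 rose (14.3%, beside 5.03% of all genes passing as higher), with a median of 0.03. TSC22D3, a glucocorticoid-induced leucine zipper gene, had 33.1 and 17.2 CPM in WT37 with and without DOX, against 14.1 and 8.76 CPM in WT5 and 10.3 and 8.82 CPM in WT2 (log2 fold change 1.13, edgeR adjusted p = 0.00419). Leaving out the WT37 library with DOX, which left 1 library of that clone, left 0 genes called in each of the lists of protein-coding hosts, TOP mRNAs, snoRNP genes, ribosome biogenesis, NMD-sensitive mRNAs, NMD factors and glucocorticoid targets. It left 5 of the 6 in the list of other non-coding hosts. Without that library calls also fell steeply over all genes tested, so their loss is not particular to these lists. Among all genes tested, 590 were higher and 484 lower in WT37, or 894 and 234 when scaled by reads in genes alone.

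Clone WT5 was then compared with clone WT2, a contrast that does not use the level of WT37. None of the 10 members passed by edgeR's test, beside 0.972% of all genes tested (0.639% higher in WT5 and 0.332% lower). Of the 10, SNHG8 alone had an unadjusted p under 0.05, and DESeq2 and limma-voom also called 0. Log2 fold changes of WT5 over WT2 ran from -0.34 for SNHG8 (SE 0.122, edgeR adjusted p = 0.304) to 0.23 for GAS5 (SE 0.156, edgeR adjusted p = 0.640), with a median of -0.07. SNHG1 stood at 0.22 (SE 0.146), SNHG9 at -0.27 (SE 0.196) and SNHG16 at -0.26 (SE 0.215). The other non-coding hosts ran from -0.20 to 0.82, with 0 of 14 called and 0 at an unadjusted p under 0.05. SNORD104 stood at -0.31 (SE 0.343, edgeR adjusted p = 0.802). Of the related lists, ATF4 was higher in WT5 at 1.04 (edgeR adjusted p = 0.00142), and UBTF, a factor for ribosomal RNA transcription, was lower at -0.57 (edgeR adjusted p = 0.0260).

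With DOX, some members were lower in every clone and others showed no common direction. SNHG8, SNHG9, SNHG12, SNHG16 and SNHG25 had the lower CPM with DOX in all 3 clones, 5 of the 10 beside 13.8% of all genes tested. No member was higher in all 3, beside 21.3% of all genes tested. Without the clone as a block, edgeR called 0 of the 10 members and 0% of 11732 genes, while 709 genes had an unadjusted p under 0.05, SNHG8 among them, and DESeq2 called 57 genes and 0 members. With the clone as a block, for which the pairing of libraries by clone is given by the labels, 183 genes (1.56%) passed, of which 98 (0.835%) were lower. SNHG9 was then the 1 member that passed, a description here, since the contrast was known when the genes were chosen. Under the block, 0 members passed without WT37, without WT2 or by DESeq2, beside 0.181%, 0.291% and 1.13% of all genes tested. Without WT5, 2 passed as lower, SNHG9 and SNHG25, beside 6.31% of all genes called in either direction. With no filter on low counts and no block, SNHG9 passed as lower, beside 1.04% of all genes called in either direction. Epithelial markers moved with DOX in the block fit, with 4 of 7 past the threshold and a median log2 fold change of -0.65. EPCAM (-0.73), KRT18 (-0.69) and VIL1 (-1.97) were lower with DOX and CDX2 (0.42) was higher, with edgeR adjusted p-values of 0.0133, 0.0120, 0.0457 and 0.0486. In that fit 0 of the 7 passed without WT37 or without WT2, and 7 passed without WT5. Their part in the members' differences with DOX was not tested.

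SNHG9 averaged 18.6 ± 15.8 CPM with DOX and 30.1 ± 25.5 CPM without it (SD, n = 3 each), the spread being that between clones. Within clones, the log2 ratio of CPM with DOX over that without was -0.69 in WT37 (95% exact interval of the ratio of 2 counts -0.92 to -0.47), -0.52 in WT5 (-1.01 to -0.03) and -0.86 in WT2 (-1.35 to -0.38). The fit with the clone block gave -0.73 (SE 0.146). All 3 clones therefore had the lower value with DOX, by amounts whose intervals overlapped.

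SNHG12 had log2 ratios of -0.31 in WT37 (-0.57 to -0.04), -0.52 in WT5 (-0.97 to -0.08) and -0.49 in WT2 (-0.96 to -0.02), and the block fit gave -0.46 (SE 0.146). For SNHG8 they were -0.47 in WT37 (-0.55 to -0.38), -0.53 in WT5 (-0.63 to -0.42) and -0.15 in WT2 (-0.25 to -0.05), with -0.42 (SE 0.099) in the block fit. These 2 genes and SNHG9 were the 3 members whose interval lay below 0 in every clone. The share of all genes with such intervals was not computed, so nothing is read from that count. SNHG25 had -0.27 in WT37 (-0.35 to -0.20), -0.02 in WT5 (-0.17 to 0.14) and -0.37 in WT2 (-0.53 to -0.21), so its lower level with DOX was measured in WT37 and WT2 and was within counting error in WT5. For SNHG16 the ratios were -0.07 in WT37, -0.57 in WT5 and -0.11 in WT2, and the interval lay below 0 in WT5 alone.

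**Figure D4:**
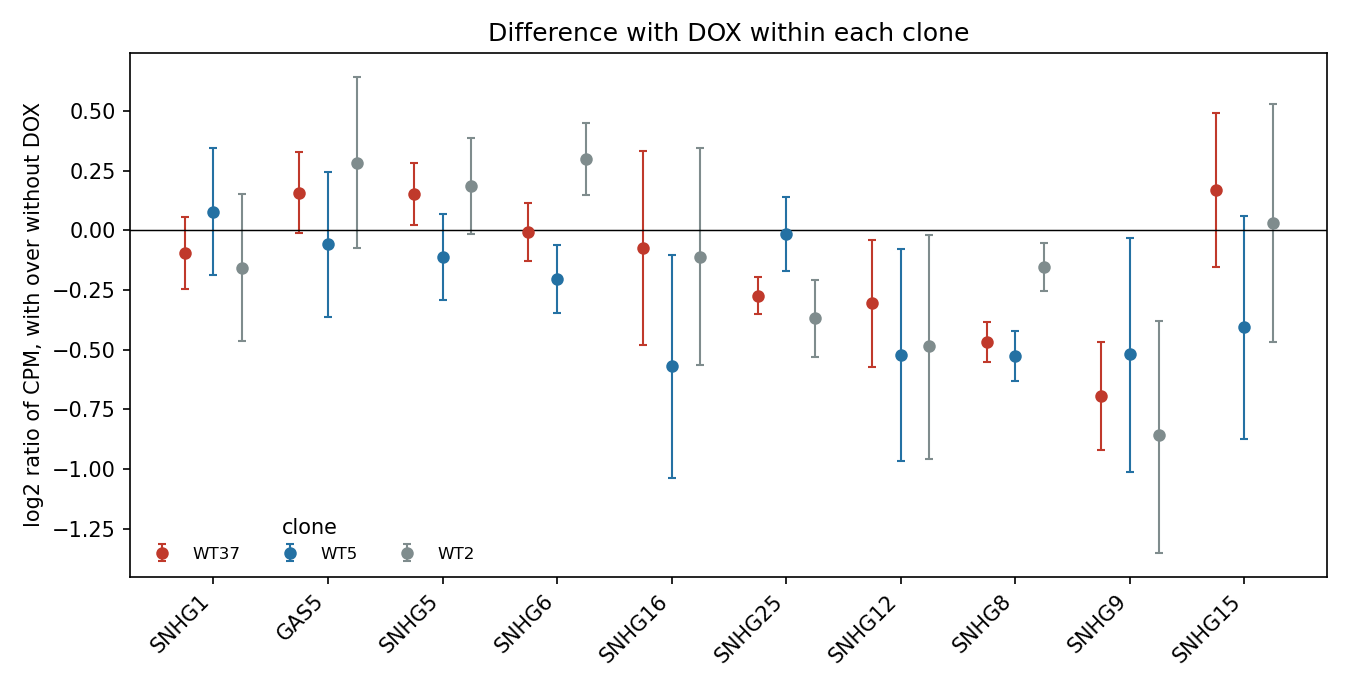
Log2 ratio of CPM with DOX over CPM without it for each member within clones WT37, WT5 and WT2, with 95% exact intervals of the ratio of 2 counts, which cover counting error only. SNHG8, SNHG9 and SNHG12 lie below 0 in all 3 clones, and SNHG6 lies above 0 in WT2 and below 0 in WT5.

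GAS5 and SNHG1, both far higher in WT37, had DOX ratios on both sides of 0. GAS5 had log2 ratios of 0.16 in WT37, -0.06 in WT5 and 0.28 in WT2, and SNHG1 had -0.09, 0.08 and -0.16 in the same clones. In the block fit they stood at 0.08 (SE 0.120) and -0.10 (SE 0.114). SNHG5 had 0.15, -0.11 and 0.19, and SNHG15 had 0.17, -0.40 and 0.03. Over the 10 members, the median log2 ratio was -0.08 in WT37, -0.30 in WT5 and -0.13 in WT2, beside 0.08, 0 and 0.04 over all genes tested. Each clone gave 1 library per condition, so these ratios have no replicate check.

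The other non-coding hosts showed no call with DOX. By edgeR 0 of 14 passed with the clone as a block and 0 without it, and 0 had an unadjusted p under 0.05 in either fit. SNHG7, SNHG19 and ZFAS1 had block-fit values of -0.03, -0.10 and -0.02. No gene passed in the lists of protein-coding hosts, snoRNP genes, NMD factors, NMD-sensitive mRNAs, TOP mRNAs, ribosome biogenesis and glucocorticoid targets in either fit, where 0 to 3 genes per list had an unadjusted p under 0.05.

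Across the 6 libraries, members followed each other to different degrees. They were selected on the WT37 difference, so r among them is not independent of that difference. Pearson's r between a member's log2(CPM + 1) and the mean z-score of the other 9 was 0.97 for SNHG12 and SNHG15, 0.95 for SNHG9 and SNHG25, 0.72 for SNHG8 and 0.48 for SNHG16, a description over 6 libraries from 3 clones. The genes most like the members' mean profile were sought among 6318 other genes with a mean of at least 20 CPM. SPOP, a ubiquitin ligase adaptor, came first (r = 0.998), followed by DCUN1D5, ADD3, NEU3, MED22, ARHGAP32, FUBP3, OPA1, YTHDF3 and LINC02878 (r = 0.989). SPOP had 222 and 230 CPM in WT37 with and without DOX, against 166 and 185 CPM in WT5 and 180 and 178 CPM in WT2. Its log2 fold change in WT37 was 0.25, well below the members' median; r compares the spacing of libraries and not the size of a difference. With 6 libraries, 104 of the 6318 genes had an r above 0.95.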

How the data were processed

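QuantSeq 3' FWD libraries of total RNA were sequenced from 6 DLD-1 cultures, per the labels' protocols. The authors deposited 1 table of raw read counts per Ensembl gene, with 4 rows for reads given to no gene: unmapped (4.29% to 5.25% of reads), mapped to several places (11.8% to 16.0%), in no feature (8.72% to 11.7%) and ambiguous (6.85% to 7.40%). These rows were left out. GRCh38 and DESeq2 are named per the submitters' processing notes; the aligner, the counting program, its strand setting and the annotation were not given in the sources used here. A 3' kit yields about 1 fragment per transcript end, so CPM does not depend on gene length.

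Of the gene IDs, 22056 were named from a table of Ensembl identifiers and 4858 from GENCODE 29 alone. Gene positions and hosts were taken from GENCODE 29 on GRCh38, snoRNA names and start sequences from RefSeq GRCh38.p14. CPM are counts scaled to each library's total of reads in genes. Counts were tested with edgeR 4.0.16 in R 4.3.3 (glmQLFit and glmQLFTest, TMM scaling, filterByExpr by DOX group, 11732 genes, Benjamini-Hochberg threshold 0.05). The SE is the log2 fold change divided by the square root of its F statistic. In the clone contrasts, SE and p-value rest on the spread between the 2 libraries of a clone, after the DOX term. They do not measure the spread between clones. WT37 was set against the mean of WT2 and WT5, and WT5 against WT2, with DOX as a term; DOX was tested without and with the clone as a block. The check of the pairing gave correlations of 0.53 (WT37), 0.28 (WT5) and 0.49 (WT2) between the deviations of same-clone libraries, and values below 0 for all other pairs. Replicates are clones, and no label says that libraries of 1 clone came from separate cultures beyond their DOX state.

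The members and lists were chosen with earlier results of these data known. Named were all members, up to 6 genes passing per list by size of change, the 10 genes most like the members' profile, snoRNA rows inside members and overlapping genes; neighbours, annotated hosts and DANCR, SNHG29 and SCARNA22 were added after values were seen. The values of 1 gene are not reported here. Alternatives were RLE scaling, other filters, DESeq2 1.42.0, limma-voom 3.58.1, leaving out libraries and clones, reads in genes alone and a robust fit. The fits were tested on simulated data.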

Additional observations from a re-analysis of the deposited data

Results flagged for a closer look

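SNHG6 differed in the direction of its DOX difference between clones. The log2 ratio of CPM with DOX over that without was -0.20 in WT5 (95% exact interval -0.35 to -0.06) and 0.30 in WT2 (0.15 to 0.45), while it was -0.01 in WT37. In CPM, SNHG6 had 115 with DOX and 132 without it in WT5, against 138 with DOX and 112 without it in WT2. Each clone had 1 library per condition, so the difference between clones was not tested, and the intervals cover counting error only.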

How the results depend on the processing

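The number of genes called depended strongly on the processing, and the cause was not tested. For DOX, 0 genes passed, against 245 with no filter on low counts, 57 by DESeq2, 183 with the clone as a block and 0 to 31 when libraries or clones were left out (31 without WT5 DOX-treated cells). In the fit with the clone block, 21 genes passed without WT37, 751 without WT5 and 35 without WT2, a choice made after seeing the data, as were the robust fit, scaling by reads in genes alone and other block fits. For WT37, 1074 genes passed, against 1763 with no filter, 457 by DESeq2, 272 with no DOX term and 125 to 2397 when libraries or clones were left out. For WT5 against WT2, 114 passed, against 373 with no filter, 44 with no DOX term and 56 to 364 when libraries or clones were left out. Between WT5 and WT2, 0 members passed in any alternative, and in WT37 5 or 6 other non-coding hosts passed in each. The block put 1 member, SNHG9, past the threshold, and changed no list of hosts or related genes. The sign turned for uncalled differences of WT5 over WT2: leaving out libraries gave -0.263 to 0.143 for SNHG6, -0.25 to 0.201 for SNHG15 and -0.287 to 0.0764 for SNHG25, and reads in genes alone gave 0.0212 for SNHG15. ATF4 in WT37 stood at -0.00805 without WT2 and at 1.03 without WT5. Without the clone block, the median DOX difference of the members moved between -0.56 and 0.19, without the WT37 library with DOX and without that lacking it. Those fits hold WT37 in 1 DOX group only, so the clone difference enters the DOX difference. In the fits with the clone block the median ran from -0.21 to -0.16. For a clone left with 1 library, that library is assumed to vary like the others. SNORD104, which lies inside a gene selected on the WT37 contrast, is among the calls counted next and among those that held. It is a description only. Of 37 calls of listed or named genes outside the members, 6 held in every alternative, and 29 were lost without the WT37 library with DOX.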
